A study of Homo sapiens with 6 samples.

Results

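The genes described here encode the main protein families of the splicing machinery: the SR proteins (symbols SRSF), the hnRNP proteins (HNRNP), the small nuclear ribonucleoprotein polypeptides (SNRP), the SF3A and SF3B subunits, the U2AF family, the LSM proteins and the PRPF proteins. Their rule uses symbols and no measured value, though it was set with earlier results of these data known, and 83 of the 15024 genes in the deposited table matched. All 83 were among the 14343 genes kept by the filter on low values, which asked for 10 or more normalised reads in any 3 libraries. Total RNA had been sequenced from MDA-MB-231 cells, a triple-negative human breast cancer line, sorted by flow cytometry into CD44+CD104high cells (3 libraries) and CD44+CD104-/low cells (3 libraries, here CD104low). All 6 libraries carried the label sgNT, which the labels do not spell out, and came from cells given forskolin, an activator of adenylate cyclase, at 10 µM for 14 days. The design text calls the CD104high cells hybrid between epithelial and mesenchymal states and the CD104low cells mesenchymal. No untreated cells and no other line are compared here, so the populations are those of forskolin-treated cells of 1 line.

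Splicing removes introns from precursor RNA. U1 and U2 small nuclear ribonucleoproteins recognise the splice sites and the branch point, the U4/U6.U5 tri-snRNP joins them, and the assembly is rearranged into a catalytic spliceosome. Each of the U1, U2, U4 and U5 RNAs carries a ring of Sm proteins, whereas U6 carries a ring of LSM proteins, and a related LSM ring acts in the decay of mRNA in the cytoplasm. SR proteins and hnRNP proteins bind exons and introns and shift the choice of splice sites, and several of them have been studied in epithelial-mesenchymal transition. The values are read counts per gene, so they measure how much RNA of each factor was present and not how any transcript was spliced.

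The sort was visible in the data. ITGB4, which encodes CD104, had 17659 ± 1766 normalised reads in CD104high and 3079 ± 743 in CD104low cells (SD, n = 3 each). The libraries held 52088604 to 56958065 recovered reads. Among 8 sort and cell-line markers, KRT8, KRT18, VIM and CD44 were abundant in both populations and not called. CD44 was lower in every CD104high library (adjusted p = 0.113, limma). ITGA6 was called higher in CD104high cells (15457 against 8272 reads, adjusted p = 0.000306, limma). ERBB2 was higher in every CD104high library and not called (8727 against 7571 reads, adjusted p = 0.0501, limma). EPCAM was low in both, at 677 against 639 reads. ESR1 and PGR were not among the genes analysed. Among immune markers CD14 was in the table, at 534 to 573 reads in CD104high and 240 to 263 in CD104low cells, and PTPRC, CD3E, CD68 and LYZ were not analysed here. Of 4 endothelial markers KDR and PECAM1 were in the table (sum 60.7 to 130 against 88.6 to 114). The 6 fibroblast markers summed to 5067 to 7483 against 3125 to 5156 reads, with COL1A2 called higher in CD104high cells. The part of these cell type markers in the results was not tested. In sorted bulk RNA, fewer cells of a type and less RNA per cell cannot be told apart.

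Splicing factor RNA was lower in CD104high than in CD104low cells for many SNRP, SF3A and SF3B, hnRNP and LSM genes, and for fewer PRPF genes, by less than 30%. With limma and Benjamini-Hochberg adjustment over all 14343 genes, 34 of the 83 genes (41%) were called lower in CD104high cells, against a background of 11.3% of all genes tested, and 1 was called higher (1.2%), against 12.1%. Calls in either direction came to 35, against 23.4% of all genes. The 34 lay 13.9% (HNRNPK) to 29.3% (SNRPG) below their CD104low means. The sign of the difference was negative for 76 of 83, against 48.8% of all genes, and the median log2 fold change was −0.22, against 0.01 over all genes tested. For 50 genes (60.2%) the 3 CD104high libraries all lay below the 3 CD104low libraries, a pattern shown by 21.3% of all genes, and for 1 gene they all lay above, as for 19.9% of all genes. These 50 included all 34 called genes. Part of this contrast with all genes goes with level: among 3529 genes whose mean lay within the central range of the members' means, 20.8% were called lower. In the authors' deposited table, 40 of the 83 (48.2%) had an adjusted p under 0.05 and were lower, against 14.8% of the 13831 genes with an adjusted p there.

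**Figure D1:**
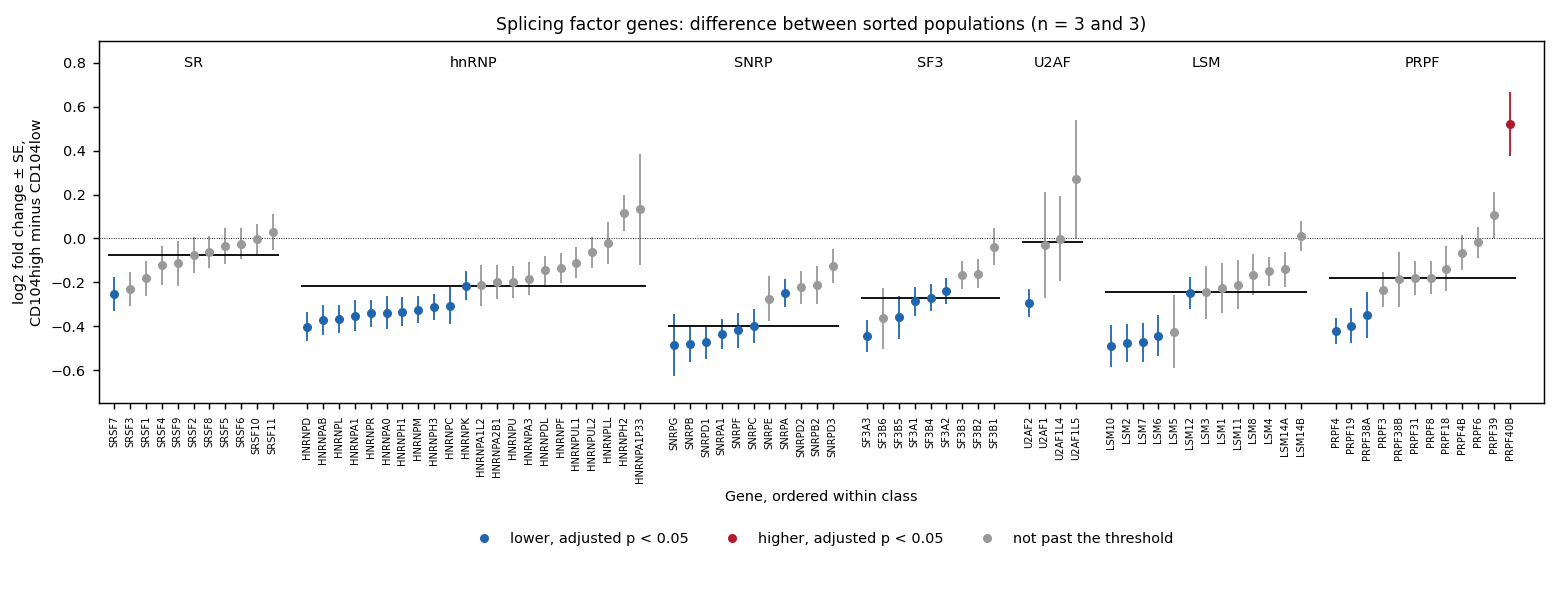
The log2 fold change of the splicing factor genes reported by name (CD104high minus CD104low, with its SE from limma, n = 3 and 3), ordered within family; horizontal bars mark the median of all genes of the family. Most points lie below 0, from −0.49 for LSM10 to 0.52 for PRPF40B, and the medians of the U2AF (−0.02) and SR (−0.08) families lie closest to 0. The U2AF median falls between U2AF1 and U2AF1L4, which had low read counts, while U2AF2 lies at −0.29.

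The families differed in how many of their genes were called. SNRP proteins had 7 of 11 called lower (63.6%) and a median log2 fold change of −0.40. SF3A and SF3B had 5 of 9 (55.6%, median −0.27), and hnRNP proteins 11 of 22 (50%, median −0.21). LSM proteins had 5 of 13 (38.5%, median −0.25) and PRPF proteins 4 of 13 (30.8%, median −0.18) with 1 higher. SR proteins had 1 of 11 (9.09%, median −0.08), and U2AF had 1 of 4 (25%, median −0.02). The share called lower was 11.3% over all genes and 20.8% within the central range of the members' means. The SR share lay below both, and the PRPF and U2AF shares lay above both. Differences between families were not tested. Outside the SR family 33 of 72 genes were called lower (45.8%). Of the 83 symbols 4 belong to near-identical copies, HNRNPA1L2, the processed pseudogene HNRNPA1P33, U2AF1 and U2AF1L5, whose reads the counting could split, and without them 34 of 79 (43%) were called.

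**Figure D2:**
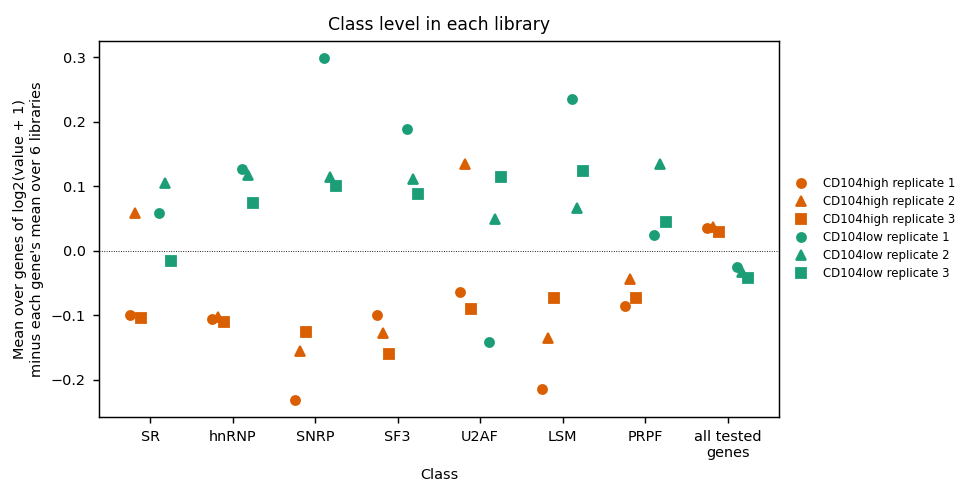
The level of each family in each library, as the mean over its genes of log2(value + 1) minus the gene's mean over the 6 libraries. For SNRP, SF3, LSM, PRPF and hnRNP genes every CD104high library lies below every CD104low library. For SR and U2AF genes the libraries overlap. CD104low replicate 1 is highest for SNRP, SF3 and LSM genes and, by a small margin, for hnRNP genes.

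The SNRP genes encode the proteins of the U1, U2, U4 and U5 particles. SNRPD1, a protein of the Sm ring, had 5392, 6080 and 6224 normalised reads in CD104high and 8618, 7950 and 7938 in CD104low libraries. The groups did not overlap. SNRPD1 was 27.8% lower in CD104high cells, at 5898 ± 445 against 8168 ± 389 (log2 fold change −0.47, SE 0.07, adjusted p = 0.00234, limma). The gene lies on the plus strand at chr18:21612267-21633524 (GRCh38). SNRPB encodes SmB and SmB′, and had 12510, 13167 and 13591 reads in CD104high and 20645, 17319 and 16925 in CD104low libraries. Again all CD104high values lay below all CD104low values, with CD104low replicate 1 highest (log2 fold change −0.48, SE 0.08, adjusted p = 0.00366, limma). Without that library the log2 fold change of SNRPB was −0.39, with an adjusted p of 0.00516. Of its exon bases 20% are shared with AL049650.1 on the same strand, so some reads of that locus may belong to either gene. SNRPF, also of the Sm ring, had 3231, 3250 and 3063 reads against 4668, 4174 and 3933, with no overlap (log2 fold change −0.42, adjusted p = 0.00509, limma).

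The Sm ring held 7 genes of the SNRP family, of which SNRPB, SNRPD1, SNRPF and SNRPG were called lower (57.1%, against 11.3% of all genes). The median log2 fold change of the 7 was −0.42. SNRPG lay furthest below its CD104low mean, in percent, of the 83 genes and also had a wide spread. Its values were 3484, 3888 and 4451 in CD104high against 6970, 4704 and 5040 in CD104low libraries (log2 fold change −0.48, SE 0.14, adjusted p = 0.0334, limma). CD104low replicate 1 stands well above the other CD104low libraries, and without it the log2 fold change was −0.31 and the adjusted p 0.0662; without CD104high replicate 1 or 2 the adjusted p was 0.134 or 0.0924. SNRPD2 and SNRPE did not overlap between groups and did not pass (log2 fold changes −0.22 and −0.27, adjusted p = 0.0559 and 0.0861, limma), and with the replicate number as a block SNRPD2 had an adjusted p of 0.0419. SNRPD3 overlapped (log2 fold change −0.12). Of the 4 genes of U1- and U2-specific proteins, 3 were called lower (75%). SNRPA1, the U2 A′ protein, had 2922, 2774 and 2860 reads in CD104high and 4064, 3848 and 3657 in CD104low libraries, with no overlap (log2 fold change −0.43, SE 0.07, adjusted p = 0.00245, limma). SNRPC and SNRPA, both of U1, had log2 fold changes of −0.40 and −0.25 (adjusted p = 0.00631 and 0.019, limma). The call of SNRPA was lost without CD104high replicate 2, CD104high replicate 3 or CD104low replicate 2 (adjusted p = 0.0547, 0.074 and 0.069). SNRPB2 of U2 overlapped between groups.

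Promoters of most SNRP and SF3 genes held a short sequence that the choice of genes did not use. RefSeq promoters (GRCh38.p14, the 250 bases before the first listed start) were found for 70 of the 83 genes, and 10 of the 11 SNRP genes. CCGGAAG, the core of many ETS-family binding sites, was searched on both strands, on which its reverse complement is CTTCCGG. It was present in 7 of the 10 SNRP promoters (70%), in 22 of the 70 promoters of all splicing genes (31.4%), in 15.5% of 11103 promoters of tested genes and in 8.82% of all 27305 promoters. It was also present in 6 of 8 SF3A and SF3B promoters (75%), in 1 of 3 of U2AF, and in 22.2% of PRPF, 20% of SR, 15% of hnRNP and 10% of LSM promoters. The SNRP windows are shown here, and those of SF3A with its genes, because these families had the highest shares. Each is on the strand of the gene with the match in capitals, and where a promoter held more than 1 match the match nearest the start is shown.
SNRPB: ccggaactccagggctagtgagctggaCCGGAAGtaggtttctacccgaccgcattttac
SNRPA1: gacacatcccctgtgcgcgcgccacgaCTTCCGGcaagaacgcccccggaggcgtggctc
SNRPG: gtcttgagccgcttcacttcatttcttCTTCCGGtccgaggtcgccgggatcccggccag
SNRPC: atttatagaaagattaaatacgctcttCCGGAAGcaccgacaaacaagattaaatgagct
SNRPD2: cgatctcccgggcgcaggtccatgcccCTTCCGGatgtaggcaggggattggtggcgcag
SNRPE: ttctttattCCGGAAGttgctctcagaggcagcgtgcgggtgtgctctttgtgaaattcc
SNRPB2: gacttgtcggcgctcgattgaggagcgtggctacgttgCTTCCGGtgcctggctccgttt
The windows lie at chr20:2470798-2470857 (minus strand, SNRPB), chr15:101295329-101295388 (minus, SNRPA1), chr2:70293476-70293535 (minus, SNRPG) and chr6:34757267-34757326 (plus, SNRPC). The other three lie at chr19:45692347-45692406 (minus, SNRPD2), chr1:203861597-203861656 (plus, SNRPE) and chr20:16729966-16730025 (plus, SNRPB2). SNRPB, SNRPA1, SNRPG and SNRPC were called lower and SNRPD2, SNRPE and SNRPB2 were not. Over all splicing genes the motif was about as frequent in genes called lower (10 of 30, 33.3%) as in genes not called (30.8% of 39).

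LSM2 to LSM8 form the ring on U6, and LSM1 takes the place of LSM8 in the ring of cytoplasmic mRNA decay. LSM2 had 1800, 1941 and 1786 reads in CD104high and 2815, 2517 and 2373 in CD104low libraries. LSM2 was 28.2% lower in CD104high cells, without overlap (log2 fold change −0.48, SE 0.09, adjusted p = 0.00395, limma). LSM7 had 4215, 4412 and 4757 against 7019, 5915 and 5689 reads (log2 fold change −0.47, adjusted p = 0.0052, limma), and LSM6 1577, 1689 and 1826 against 2555, 2225 and 2145 (log2 fold change −0.44, adjusted p = 0.00837, limma). In both, the groups were apart and CD104low replicate 1 was the highest library. These 3 were the genes called among LSM1 to LSM8 (37.5%, against 11.3% of all genes). The median log2 fold change of the 8 was −0.33, and all 8 signs were negative. LSM4, the most abundant of the family by read count, had 11324, 11525 and 11598 against 13480, 12054 and 12718 reads. Its groups did not overlap and the difference did not pass (log2 fold change −0.15, adjusted p = 0.122, limma). LSM5 overlapped, with log2 fold change −0.42, SE 0.17 and adjusted p = 0.0912 (limma), or 0.0176 with the replicate number as a block. LSM1 and LSM8, which distinguish the decay ring from the U6 ring, both overlapped and had log2 fold changes of −0.23 and −0.16 (adjusted p = 0.176 and 0.235, limma).

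LSM10 and LSM11 replace Sm proteins in U7, the particle that cuts the ends of histone mRNAs. LSM10 had 1328, 1211 and 1407 reads in CD104high and 2059, 1746 and 1744 in CD104low libraries. It had the most negative log2 fold change of the 83 genes, without overlap (−0.49, SE 0.10, adjusted p = 0.0065, limma). LSM11 was low, with 567 ± 57.5 against 654 ± 5.23 reads, and did not pass (log2 fold change −0.21, adjusted p = 0.195, limma). Of the long LSM proteins, LSM12 was called with a log2 fold change of −0.25 (adjusted p = 0.0369, limma), and leaving out any of the 6 libraries lost the call (adjusted p 0.0539 to 0.12). LSM14A and LSM14B, factors of cytoplasmic RNA granules, overlapped between groups.

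SF3A and SF3B are the parts of U2 that hold it at the branch point. All 3 SF3A genes were called lower (100%, against 11.3% of all genes). SF3A3 had 4814, 4531 and 4367 reads in CD104high and 6646, 6058 and 5944 in CD104low libraries, without overlap (log2 fold change −0.44, SE 0.07, adjusted p = 0.00255, limma). SF3A1 had 6096, 5618 and 5536 against 6773, 7125 and 7117 reads (log2 fold change −0.29, adjusted p = 0.013, limma), and SF3A2 5747, 5467 and 5457 against 6577, 6558 and 6542 (log2 fold change −0.24, adjusted p = 0.0191, limma). The groups were apart in both, by a narrower gap than in SF3A3. Without CD104high replicate 2 or 3 the adjusted p of SF3A1 was 0.056 or 0.0503 and that of SF3A2 0.0737 or 0.0688, and without CD104low replicate 2 that of SF3A2 was 0.059. The promoters of the 3 SF3A genes each held CCGGAAG as well, and are shown because the whole subcomplex was called.
SF3A1: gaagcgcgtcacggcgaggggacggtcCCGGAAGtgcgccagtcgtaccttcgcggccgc
SF3A2: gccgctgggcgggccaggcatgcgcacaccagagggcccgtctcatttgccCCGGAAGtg
SF3A3: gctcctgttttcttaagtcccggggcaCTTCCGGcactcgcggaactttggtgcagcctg
They lie at chr22:30356911-30356970 (minus strand), chr19:2236764-2236823 (plus) and chr1:37990058-37990117 (minus), in the order printed.

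Of the 6 SF3B genes 2 were called lower (33.3%, against 11.3% of all genes). For 5 of them (83.3%) all CD104high libraries lay below all CD104low libraries, against 21.3% of all genes. SF3B4 had 5363, 5174 and 5026 reads in CD104high and 6359, 6239 and 6171 in CD104low libraries (log2 fold change −0.27, SE 0.06, adjusted p = 0.0122, limma; 0.0502 without CD104high replicate 3). SF3B5, the other called gene, had a log2 fold change of −0.36 (adjusted p = 0.0241, limma), and its adjusted p without CD104high replicate 1, 2 or 3 was 0.0826, 0.0697 or 0.0502. SF3B2, the SF3B gene with the most reads, had 24610, 22426 and 22413 against 26486, 25604 and 25497, apart but not past the threshold (log2 fold change −0.16, adjusted p = 0.108, limma). SF3B1, the subunit that contacts the branch point and is often mutated in blood cancers, had 20413 ± 1200 against 20985 ± 2116 reads and a log2 fold change of −0.04. SF3B6 was not called (adjusted p = 0.0845, limma), and had 0.0483 with the replicate block.

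U2AF recognises the end of the intron ahead of U2, with U2AF2 on the polypyrimidine tract and U2AF1 on the AG that follows. U2AF2 had 22178, 21238 and 20774 reads in CD104high and 27264, 26197 and 25283 in CD104low libraries. The groups did not overlap (log2 fold change −0.29, SE 0.06, adjusted p = 0.0103, limma). U2AF1 and U2AF1L5 had 79.2 to 128 and 53.4 to 111 reads, and U2AF1L4 102 to 143, all with overlapping groups (adjusted p = 0.944, 0.514 and 0.999, limma). The first 2 are near-identical copies on chromosome 21, so their low values cannot be read as the level of U2AF1.

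The PRPF genes carry names from yeast mutants of precursor RNA processing and encode unlike proteins. PRPF4, of the U4/U6 particle, had 4570, 4576 and 4486 reads in CD104high and 6173, 6064 and 6032 in CD104low libraries. The spread within each group was small, and PRPF4 had the smallest p of the 83 genes. It was 25.4% lower in CD104high cells, at 4544 ± 50.3 against 6090 ± 73.5 (log2 fold change −0.42, SE 0.06, adjusted p = 0.00136, limma). The other PRPF genes of the tri-snRNP, PRPF3, PRPF6, PRPF8 and PRPF31, were not called. PRPF8, the large U5 protein at the catalytic centre, had 33794, 28935 and 31032 against 33787, 36583 and 35587 reads, with overlap (log2 fold change −0.18, adjusted p = 0.119, limma). PRPF3 had an adjusted p of 0.0587, and 0.0309 with the replicate block. PRPF19, the ubiquitin ligase of the complex that activates the spliceosome, had 8213, 7752 and 8002 against 11638, 10479 and 9541 reads, without overlap (log2 fold change −0.40, SE 0.08, adjusted p = 0.00658, limma). PRPF38A was called (log2 fold change −0.35, adjusted p = 0.0403, limma), but only the omission of CD104low replicate 3 kept the call among the 6 omissions (adjusted p 0.0106 to 0.122). PRPF38B had an adjusted p of 0.315, and of 0.0372 with the replicate block.

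PRPF40B, related to a yeast U1 protein, was among the least abundant of the splicing genes. It had 313, 310 and 295 reads in CD104high and 184, 225 and 232 in CD104low libraries, with every CD104high library above every CD104low library. PRPF40B was the only gene of the 83 called higher, 1.43-fold (log2 fold change 0.52, SE 0.15, adjusted p = 0.0286, limma). The call held without CD104low replicate 3 and was lost on leaving out any other library (adjusted p 0.0534 to 0.0972). PRPF40B also shares 28% of its exon bases with FMNL3 and 20.7% with FAM186B, both on the opposite strand, and the strand setting of the counting is not given in the sources used here.

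**Figure D3:**
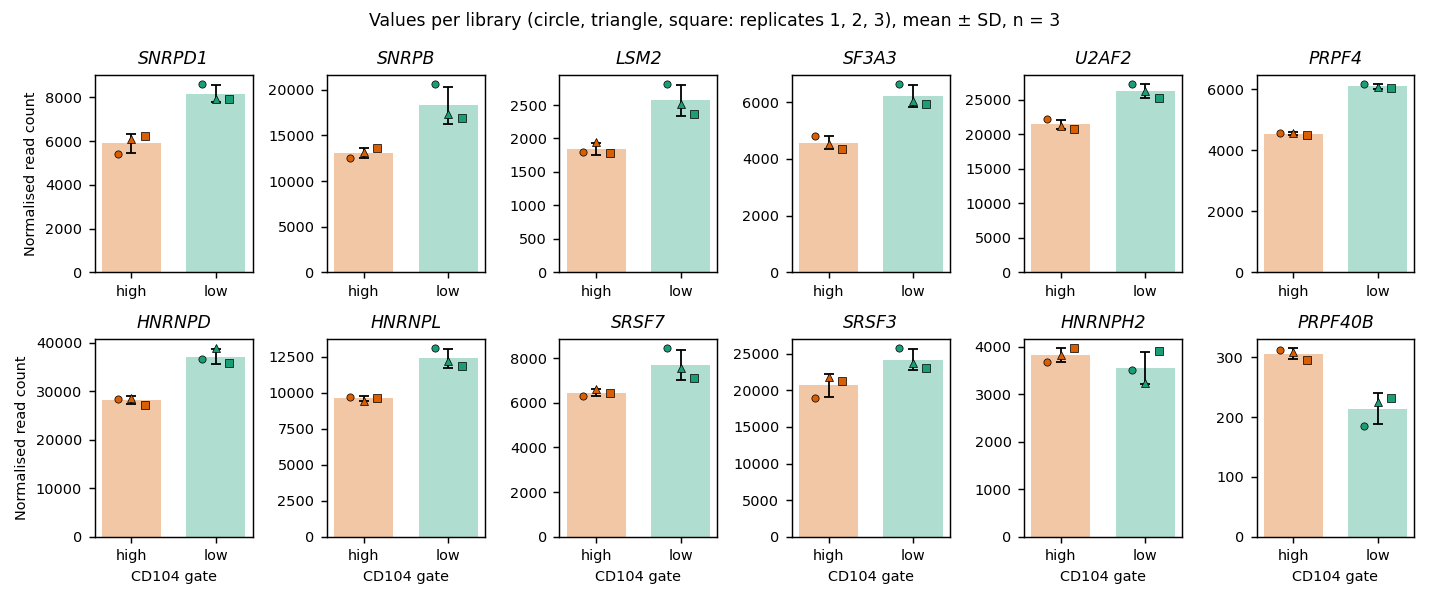
Normalised read counts per library for 12 splicing factor genes (points, replicates 1 to 3; bars and whiskers, mean ± SD, n = 3; axes start at 0). The groups do not overlap for SNRPD1, SNRPB, LSM2, SF3A3, U2AF2, PRPF4, HNRNPD, HNRNPL, SRSF7 and SRSF3, all lower in CD104high cells, nor for PRPF40B, which is higher; HNRNPH2 overlaps.

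The hnRNP proteins coat nascent RNA and often repress exons. Per kilobase of the longest coding transcript, they held the highest levels of the splicing genes, led by HNRNPA2B1 (17969 normalised reads per kb, mean of 6 libraries), HNRNPA1 (14770) and HNRNPK (14350), with SNRPB next (13598). HNRNPD, also called AUF1 and known to bind AU-rich elements, had 28453, 28706 and 27186 reads in CD104high and 36724, 38914 and 35837 in CD104low libraries. The groups were far apart relative to their spread (log2 fold change −0.40, SE 0.07, adjusted p = 0.00278, limma). HNRNPL, which binds CA repeats, had 9722, 9419 and 9631 against 13082, 12196 and 11829 reads (log2 fold change −0.37, SE 0.06, adjusted p = 0.00357, limma). HNRNPR had 7910, 7636 and 7630 against 10037, 9443 and 9876 (log2 fold change −0.34, adjusted p = 0.00392, limma), and HNRNPAB 13173, 13122 and 13319 against 18336, 16992 and 15958 (log2 fold change −0.37, adjusted p = 0.00461, limma). None of these 4 genes overlapped between groups. HNRNPA2B1 had 59142, 60165 and 64605 against 67796, 67561 and 75768 reads, also apart, and did not pass (log2 fold change −0.20, SE 0.08, adjusted p = 0.0971, limma; 0.0419 with the replicate block).

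The 7 genes of the A/B and D group (HNRNPA0, HNRNPA1, HNRNPA2B1, HNRNPA3, HNRNPAB, HNRNPD and HNRNPDL) all had non-overlapping libraries with CD104high below CD104low. This pattern was shown by 21.3% of all genes and by 33.5% of genes within the central range of the members' means. Of the 7 genes 4 were called lower (57.1%, against 11.3% of all genes), with a median log2 fold change of −0.34 over the 7. HNRNPA3 had an adjusted p of 0.104, or 0.0483 with the replicate block (limma). HNRNPM and HNRNPH3 were also called (log2 fold changes −0.32 and −0.31), as were HNRNPA1, HNRNPH1, HNRNPA0, HNRNPC and HNRNPK (−0.35 to −0.22). HNRNPK lost its call on leaving out any of the 6 libraries (adjusted p 0.0546 to 0.138), and HNRNPC lost its call without CD104high replicate 1 or 2 or CD104low replicate 1 (0.051 to 0.113). Paralogs differed from each other in this family. HNRNPH1 had a log2 fold change of −0.33 and HNRNPH2 one of 0.11 (adjusted p = 0.00673 and 0.347, limma), and the ratio of HNRNPH1 to HNRNPH2 was 4.89, 4.85 and 4.26 in CD104high against 6.25, 7.25 and 5.65 in CD104low libraries. HNRNPH2 shares 16.3% of its exon bases with the read-through gene RPL36A-HNRNPH2 on the same strand. The ratio of HNRNPL to HNRNPLL was 3.20 ± 0.243 against 4.06 ± 0.277, and that of HNRNPD to HNRNPDL 2.00 ± 0.124 against 2.39 ± 0.059, again without overlap. The ratios of PRPF38A to PRPF38B and of LSM14A to LSM14B overlapped. With 3 against 3 libraries an exact permutation p of such a ratio cannot go under 0.1.

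In the hnRNP promoters the E-box CACGTG, which reads the same on both strands, had the largest ratio of its share to that in all promoters among the 6 motifs searched. It was present in 6 of 20 hnRNP promoters (30%), in 10% of the 70 promoters of all splicing genes, in 8.64% of promoters of tested genes and in 6.49% of all promoters, and in 12.5% of 8 SF3 promoters. The SNRP, SR, LSM, PRPF and U2AF promoters had 0 matches. Windows of the 3 called hnRNP genes with a match are shown, on the strand of the gene with the match in capitals.
HNRNPD: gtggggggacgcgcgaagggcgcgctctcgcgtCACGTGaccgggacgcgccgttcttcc
HNRNPH3: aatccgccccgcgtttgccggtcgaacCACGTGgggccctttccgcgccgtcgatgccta
HNRNPM: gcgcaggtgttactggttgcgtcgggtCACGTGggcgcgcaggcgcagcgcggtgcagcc
They lie at chr4:82373992-82374051 (minus strand), chr10:68331616-68331675 (plus) and chr19:8444906-8444965 (plus), in the order printed. HNRNPA3, HNRNPDL and HNRNPH2, which were not called, had a match too. CCAAT was present in 65% of the hnRNP promoters and 44.3% of the 70, against 34.6% of promoters of tested genes and 33% of all promoters. Its share was 66.7% in PRPF, 50% in LSM, 40% in SNRP, 20% in SR, 12.5% in SF3 and 0% in U2AF promoters. GGGCGG was present in 60% of the 70 splicing promoters, above the 42.3% of all promoters and below the 66.3% of promoters of tested genes. TATAAA was present in 8.57%, below the 11.1% of all promoters and above the 5.58% of promoters of tested genes, so both directions depend on the background. By call, GGGCGG was present in 22 of 30 promoters of genes called lower (73.3%) and 19 of 39 not called (48.7%). For TATAAA these were 4 of 30 (13.3%) and 2 of 39 (5.13%). For CCAAT they were 43.3% and 43.6%, and for CACGTG 10% and 10.3%. The differences by call were not tested. The palindrome TGACGTCA, the full cyclic AMP response element, was in 0 of the 70, against 2.78% of promoters of tested genes and 1.77% of all promoters.

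SR proteins carry a domain rich in arginine and serine and mostly promote exon inclusion. SRSF7 had 6298, 6621 and 6449 reads in CD104high and 8463, 7551 and 7113 in CD104low libraries, without overlap (log2 fold change −0.25, SE 0.08, adjusted p = 0.0368, limma). It was the only SR gene called, and only the omission of CD104low replicate 3 kept the call among the 6 omissions (adjusted p 0.0211 to 0.117). SRSF3, which with SRSF7 also acts in mRNA export, had 18901, 21789 and 21351 against 25796, 23817 and 23082 reads. Its groups were apart and it did not pass (log2 fold change −0.23, adjusted p = 0.0572, limma), whereas with the replicate block it had an adjusted p of 0.045, which makes 2 SR genes called. The other 9 SR genes overlapped between groups. SRSF1, the prototype of the family, had 3682, 4473 and 3844 against 4538, 4598 and 4430 reads (log2 fold change −0.18, adjusted p = 0.135, limma), and SRSF4 4651, 5039 and 4260 against 4576, 5489 and 5114 (log2 fold change −0.12, adjusted p = 0.355, limma). The remaining 7 had log2 fold changes of −0.11 (SRSF9) to 0.03 (SRSF11). Of the exon bases of SRSF1 56.6% are shared with AC015813.2 on the same strand, and 46.2% of SRSF9 and 36.7% of SRSF2 are shared with GATC and MFSD11 on the opposite strand, so their reads may belong to either gene. Among other splicing genes, the largest such shares were 44.1% for HNRNPUL2, 42% for PRPF18 and 28% for PRPF40B. LSM1 had 26.7%, U2AF1L4 24.8% and PRPF31 22%. Of these genes only PRPF40B was called. With SEs of 0.07 to 0.10, these data do not show that the SR genes were equal between the populations.

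Genes that work with these families were counted from lists of their known roles. Over all genes tested 11.3% were called lower and 12.1% higher. Of 28 other proteins of U1, U2 and U4/U6.U5, 16 were called lower and 0 higher (57.1%, median log2 fold change −0.25). EFTUD2, a GTPase of U5, had 9300, 8761 and 8912 reads in CD104high and 12977, 12244 and 11922 in CD104low libraries (log2 fold change −0.46, SE 0.06, adjusted p = 0.00124, limma), and USP39, of the tri-snRNP, a log2 fold change of −0.43 (adjusted p = 0.00187, limma). Both were apart between groups. The machinery that loads Sm rings onto snRNAs had 9 of 17 called lower and 0 higher (52.9%, median −0.28). GEMIN5, which recognises snRNAs for this loading, had 2715, 2411 and 2593 against 3800, 4150 and 4067 reads. It was 35.8% lower in CD104high cells, without overlap (log2 fold change −0.64, SE 0.07, adjusted p = 0.00056, limma). WDR77, a partner of the methyltransferase that modifies Sm proteins, had 2335, 2603 and 2323 against 3595, 3844 and 3653 reads, also apart (log2 fold change −0.61, SE 0.07, adjusted p = 0.000705, limma). Both log2 fold changes were more negative than that of any Sm gene, a difference between genes that was not tested.

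The PRP19 complex and factors of the catalytic steps had 12 of 29 called lower and 0 higher (41.4%, median −0.21), with RBM22 at −0.45 and CTNNBL1 at −0.38 (adjusted p = 0.00232 and 0.00326, limma). SR-related proteins and the exon junction complex had 8 of 21 lower (38.1%, median −0.13), with DDX39A, an export helicase, at −0.46 and MAGOH at −0.45 (adjusted p = 0.00128 and 0.00272, limma). LSM partners in mRNA decay and U7 had 4 of 15 lower (26.7%). The share was 11.3% over all genes and 20.8% within the central range of the members' means. ZNF473 of the histone pathway had a log2 fold change of −0.47 and CPSF2 one of −0.29 (adjusted p = 0.00526 and 0.0108, limma). Kinases, phosphatases and import factors of SR proteins had 2 of 10 lower (20%, against the same shares) and a median of −0.08. The 2 were SRPK1 (−0.42, adjusted p = 0.00212, limma) and PPP1R8 (−0.21, adjusted p = 0.0498, limma). With the replicate block 3 were called lower and 2 higher. Of the 9 tested genes of the minor spliceosome 0 were called by limma, with PDCD7 and SNRNP48 at −0.28 and −0.22 (adjusted p = 0.0518 and 0.0679). At an unadjusted p under 0.05 limma gave 2 lower, edgeR and DESeq2 each called 1 lower after adjustment, and limma with the replicate block called 3.

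Among 32 other splicing regulators, including those studied in epithelial-mesenchymal transition, 8 were called lower (25%) and 2 higher (6.25%). Over all genes tested the shares were 11.3% and 12.1%. Within the central range of the members' means 20.8% of genes were called lower, a share close to that of these regulators. RBMX, an hnRNP-like protein, had 9741, 10240 and 10080 against 13513, 12765 and 12609 reads (log2 fold change −0.37, SE 0.06, adjusted p = 0.00292, limma). RBM47, an RNA-binding protein of epithelial cells, had 3689, 3434 and 2675 reads in CD104high and 2122, 2008 and 2009 in CD104low libraries, higher in every CD104high library and 1.60-fold on the means (log2 fold change 0.66, SE 0.11, adjusted p = 0.0031, limma). MBNL2 was the other gene called higher (1.22-fold, adjusted p = 0.0371, limma). The epithelial regulators ESRP1, at 12.6 against 15.2 reads, and ESRP2, at 1894 against 2061, were not called (adjusted p = 0.821 and 0.448, limma), nor were QKI and RBFOX2 (0.190 and 0.489). Over these 8 lists 59 of 161 tested genes were called lower (36.6%) and 2 higher, with a median log2 fold change of −0.19.

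**Figure D4:**
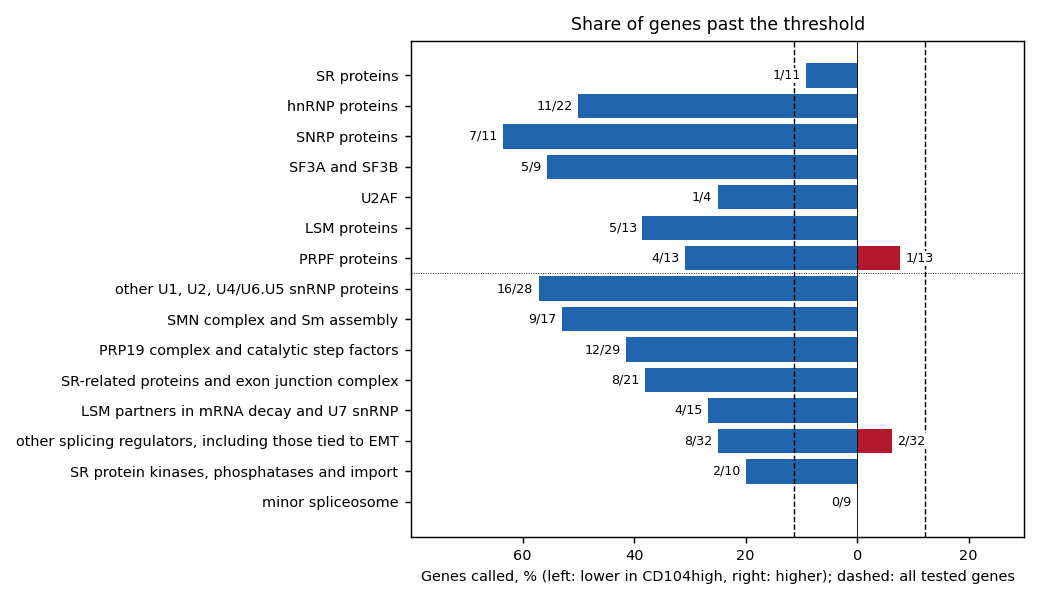
Share of tested genes called lower (left) or higher (right) in CD104high cells by limma, for the 7 families above the dotted line and 8 lists of related genes below it, with counts; dashed lines mark 11.3% and 12.1% of all tested genes. SNRP proteins (7/11) reach furthest to the left, and the minor spliceosome (0/9) and SR proteins (1/11) lie at or below the background.

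CD104low replicate 1 stood apart in ways that touch these results. For the SNRP genes its mean centred log2 value was 0.30, against 0.11 and 0.10 in the other CD104low libraries and −0.23, −0.16 and −0.13 in CD104high libraries. For 4 nuclear-retained RNAs, a reading of RNA composition, the same library was lowest (−0.48, against 0.06 and −0.01). NEAT1, a nuclear RNA of paraspeckles, which hold several splicing factors, had 48890, 49519 and 37973 reads in CD104high and 22580, 34787 and 32524 in CD104low libraries (log2 fold change 0.62, SE 0.16, adjusted p = 0.0202, limma). MALAT1 overlapped between groups (log2 fold change 0.59, adjusted p = 0.0813, limma). Without CD104low replicate 1, 29 of the 83 genes were called lower, 27 of the 34 among them, against 8.92% of all genes, and the SNRP median was −0.31. PRPF genes then had 2 called lower in place of 4, SR genes 0 in place of 1, and 0 of the 83 were called higher by limma, with PRPF40B at an adjusted p of 0.0719. The SNRP family means of the other 2 CD104low libraries still lay above those of all 3 CD104high libraries, though SNRPD3 and SNRPB2 overlapped among these libraries.

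Transcript length moved with these differences as well. Spearman's correlation between the length of the longest coding transcript and the log2 fold change was 0.213 over the 83 genes and 0.0649 over 14320 genes, given as a description across genes, which are not independent. The 9 splicing genes with transcripts under 1000 bases had a mean centred log2 value of 0.36 in CD104low replicate 1, against 0.04 and 0.02 in the other CD104low libraries and −0.18 to −0.08 in CD104high libraries. The 12 with transcripts of at least 5000 bases had 0.08, 0.16 and 0.08 against −0.17 to −0.07. In both length classes the CD104high libraries lay below the CD104low libraries, with 4 of 9 and 5 of 12 genes called lower. After a smooth trend with length and GC content was removed from each library, 36 of the 83 genes were called lower, 30 of the 34 among them, against 13.8% of all genes. The SNRP median was then −0.27. SNRPG, SRSF7, PRPF38A and HNRNPK lost their calls (adjusted p = 0.0603, 0.075, 0.0601 and 0.0576), and SF3B2, SF3B3, LSM4, PRPF8, PRPF31 and HNRNPU were called (0.0268, 0.0291, 0.018, 0.0185, 0.0462 and 0.0416).

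**Figure D5:**
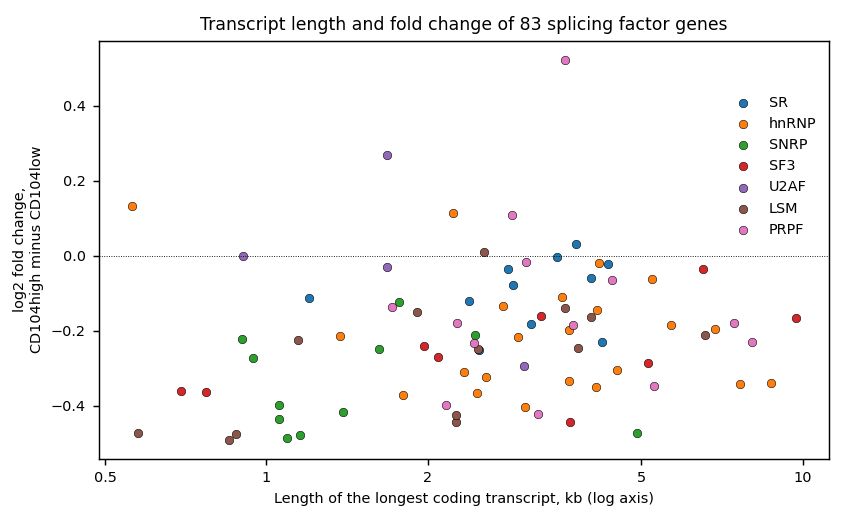
Log2 fold change (CD104high minus CD104low) of the 83 genes against the length of the longest coding transcript in kb (log axis), coloured by family. Points below 0 lie across nearly the whole range of lengths, and several short SNRP and LSM transcripts lie near −0.45.

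The calls differed in how well they held. Of the 34 genes called lower, 34 kept a negative sign under all 18 alternatives, 22 kept their call on leaving out each of the 6 libraries in turn, and 21 kept it under all 18. With the replicate block 42 genes were called lower, against 15.4% of all genes. DESeq2 on recovered reads also called 42 (13.2% of all genes), edgeR with TMM 34 (11.6%), and limma without its mean-variance trend 23 (6.53%). The 21 genes kept under all alternatives were SNRPA1, SNRPB, SNRPC, SNRPD1 and SNRPF, LSM2, LSM6, LSM7 and LSM10, SF3A3, U2AF2, PRPF4 and PRPF19, and 8 hnRNP genes (HNRNPA1, HNRNPAB, HNRNPD, HNRNPH1, HNRNPH3, HNRNPL, HNRNPM and HNRNPR). No SR gene was among them.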

How the data were processed

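Total RNA of 6 sorted samples was measured, 3 per gate. The submitters' processing notes name GRCh38.p13 (hg38), the aligner STAR 2.4.0, featureCounts 1.5.0, DESeq2 1.30.1 and FastQC. Settings and strand use are not given in the sources used. The authors deposited, as a signal per library, gene read counts divided by a size factor, with a log2 fold change and its SE on the log2 scale, a test statistic (score) and p-values. The authors' fold changes and p-values were used only where their table is named. Whole reads were recovered from the deposited values (100% within 0.1 of a whole number) and used only in alternatives; for CD104high replicate 2 the size of 1 read, 0.993, is close to 1 and less certain.

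The plan held a count test in case the table gave counts. Since it gives normalised values, log2(value + 1) was fitted with limma 3.58.1 under R 4.3.3, allowing a mean-variance trend and a Benjamini-Hochberg threshold of 0.05. Fold changes on that scale understate changes of low genes. The filter removed 681 genes. Alternatives were edgeR 4.0.16, DESeq2 1.42.0, other pseudocounts, no filter, TMM rescaling, no trend, a replicate block, each library left out, both libraries numbered 3 left out, and length and GC content removed. Scripts were tested on simulated data. The labels call the replicates biological without naming separate cultures or sorting runs, so the p-values reflect only how these libraries spread. Deviations of same-numbered libraries correlated at 0.166, 0.317 and 0.477, each over 0.1, as was 1 of the 6 pairs with different numbers (0.129). The labels state no pairing. Reported values have no block, and the blocked value is printed where it changes a call.

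Genes matched the symbol patterns of the 7 families. Of each family the 4 smallest p-values and the highest mean, and of each list the 2 smallest p-values, were named by rule; further genes were named after their values were seen. Members and lists were chosen with earlier results of these data known. Exon overlaps and lengths came from GENCODE 29 (GRCh38). A symbol with more than 1 row was counted once, by its higher row. Some genes of the lists are not reported here by name.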

Additional observations from a re-analysis of the deposited data

How the results depend on the processing

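The number of splicing genes called lower was 34, and 24 to 36 on leaving out 1 library each, 23 without the mean-variance trend, 42 with DESeq2 and 34 with edgeR and TMM. With the replicate number as a block it was 42, against 15.4% of all genes lower (2498 higher and 2208 lower); all 34 kept their call, and the calls added by the block are given beside those genes. The block changed the count of no family by more than 1.5 times except SR (2 for 1). The number called higher was 0 to 1 on leaving out 1 library, and 2 with length and GC content removed under the replicate block. Over all genes, 1017 to 1766 were called higher and 799 to 1547 lower on leaving out 1 library, 936 lower without the trend, and 2768 higher and 2644 lower with length and GC content removed under the block. Medians on leaving out 1 library were −0.16 to −0.044 for SR and −0.23 to −0.15 for PRPF genes. With length and GC content removed, with or without the block, the hnRNP median was −0.17 and the SNRP median −0.27. No called gene changed sign under the 18 alternatives, and the cause of the shifts was not tested. The values are relative within a library, so a change in total RNA per cell is not measured, and gene-level reads carry no isoforms. The smallest difference called among the splicing genes was 13.9%.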
